A study of Bos taurus with 17 samples.

Results

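CXCL12, CXCL14, CXCL5 and CCL2 are secreted chemokines, and they were chosen by the differences of their normalized RNA values between groups of these data. Each matched 1 row of the deposited table by its symbol, so 4 of 12894 genes are described, and all 4 passed the filter on low values. CXCL14 passed it only through the group where it was highest. Because the choice rests on these same values, their levels, differences and places among all genes are given as a description, without a test. The cells were mesenchymal stem cells of bovine umbilical cord, primary stromal cells grown in low-glucose medium with 10% serum, and the study asked how they differentiate on cellulose scaffolds intended for cultivated meat. Cells on plastic gave 3 untreated libraries at day 0, 3 at day 3 of differentiation and 2 at day 21. The differentiation medium was myogenic, with 2% serum, insulin-transferrin-selenium, albumin, dexamethasone, ascorbic acid 2-phosphate and 3 growth factors (vascular endothelial, insulin-like and fibroblast-like). Cells on scaffolds were sampled at day 21, either in the same medium (media scaffold, 4 libraries) or with the growth factors bound to the scaffold and omitted from the medium (smart scaffold, 3 libraries). Treated groups therefore differ from day 0 in time, serum and medium at once, the media scaffold differs from plastic in substrate, and the smart scaffold differs from plastic in substrate and in how the growth factors were supplied, which cannot be told apart. A sixth group, scaffold cells at day 0, was not analysed here because no column name matched its labels. How many donor animals were used is not stated in the labels. The libraries within a group are biological replicates by the submitters' account, and p-values measure only their spread.

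Chemokines are small secreted proteins that bind to sulfated sugar chains on cells and matrix and act through receptors coupled to G proteins to direct cell migration. CXCL12 holds stem and blood progenitor cells in stromal niches through CXCR4, while the atypical receptor ACKR3 takes it up and degrades it. CXCL5 attracts neutrophils through CXCR2, CCL2 attracts monocytes through CCR2, and CXCL14 is a constitutive tissue chemokine whose receptor is less settled. Stromal cells are a known source of CXCL12 and, under inflammatory signals, of CCL2 and CXCL5.

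RNA was measured by MARS-seq, which counts 3′ ends of polyadenylated transcripts. Values are normalized reads, that is reads divided by 1 scaling factor per library. Recovered reads per library ranged from 2197356 to 15483745, and the lowest depth was in the plastic group of day 21, where 1 normalized value step was 1.38 and 3.44. All 15 stromal markers examined had rows in the table, and together they held 2.28% to 7.84% of the normalized reads of a library, although MCAM had only 24 reads in all. In bulk RNA, fewer cells of a type and less RNA per cell cannot be told apart.

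CXCL12 RNA was present at high read numbers in every library, with totals of 2965 to 19084 reads per group. On plastic at day 0 it stood at 2372, 2544 and 2386 normalized reads, and at day 3 at 6802, 5475 and 6330.2. The 2 plastic libraries of day 21 held 14477 and 11336, the highest values of all 15 libraries. Each step of the plastic course was thus higher than the one before it in every library. On the media scaffold the libraries held 2776, 2995, 2827 and 2389.8, and on the smart scaffold 1164, 1039 and 1221. The media scaffold overlapped with day 0 on plastic, and these neighbours in the order of levels differed by less than the sum of their SDs (2434 ± 95.7, n = 3, and 2747 ± 256, n = 4). All other neighbouring groups were separate, with the smart scaffold lowest at 1141 ± 92.7 (n = 3) and plastic at day 21 highest at 12907 ± 2221 (n = 2).

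**Figure D1:**
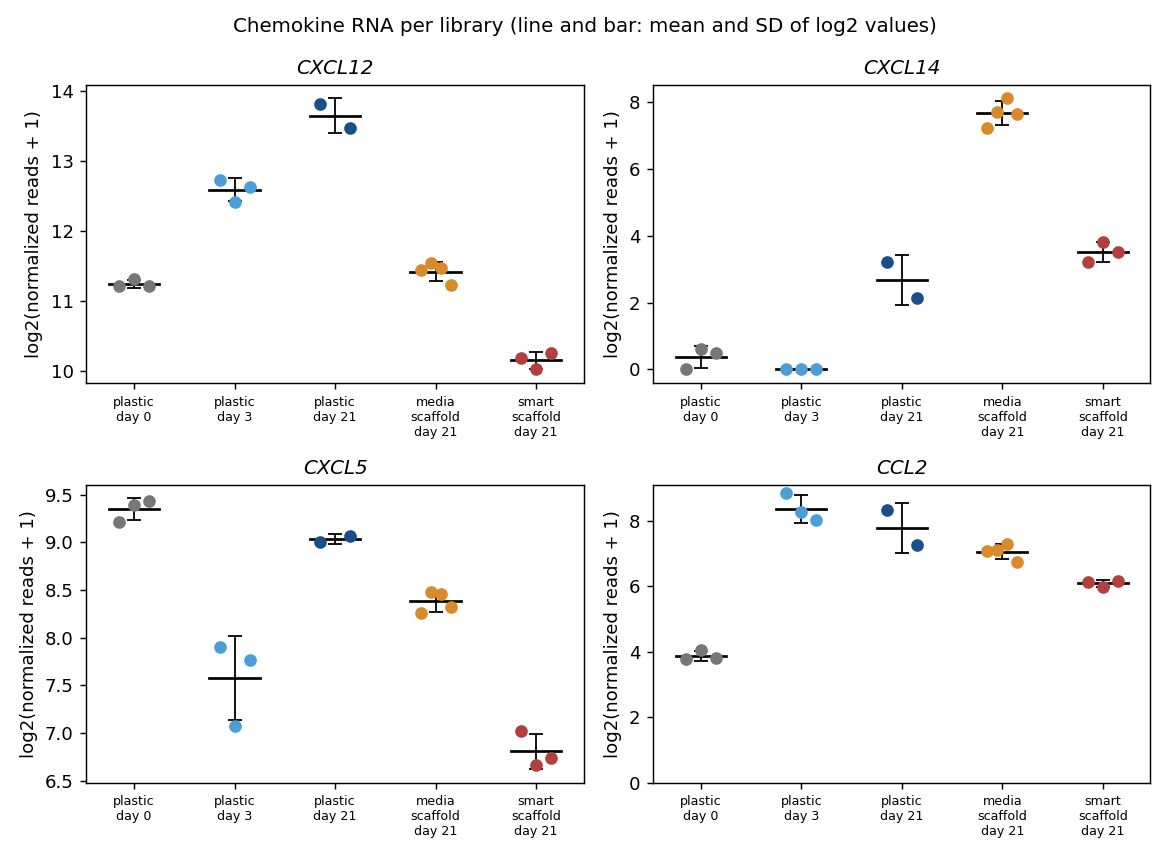
RNA level of the 4 chemokines in each of the 15 libraries, as log2(normalized reads + 1), by group. Points are libraries, and lines with bars give the mean and SD of the log2 values. CXCL12 is higher at each step of the plastic course, CXCL14 is high in the 4 media scaffold libraries, CXCL5 is lowest on the smart scaffold and CCL2 is lowest at day 0. The axes of CXCL12 and CXCL5 do not start at 0.

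CXCL14 RNA had few or no reads on plastic and was highest on the media scaffold. Day 0 had 0, 0.533 and 0.395 normalized reads, which are 2 reads in all, and day 3 had 0 reads in each of 3 libraries. The plastic libraries of day 21 held 8.28 and 3.44, or 6 reads and 1 read. The smart scaffold libraries held 8.25, 13.01 and 10.3, and the media scaffold libraries held 149, 207, 275 and 199. Every media scaffold library was above every other library, and the closest other value was 13.01. The smart scaffold overlapped with plastic at day 21, and at 29 against 7 reads a difference between them was not detectable at this depth (ratio 1.60, exact 95% counting interval 0.686 to 4.33). Day 0 and day 3 were both below a floor of 3 reads per group, so no fold between them is given. Plastic at day 21 was at least 6.98-fold higher than day 3, taking day 3 at that floor and the 7 reads of day 21 as exact, with a lower counting limit of 4.31. By reads the ratio to day 0 was 20.1, from 7 against 2 reads, with a counting interval of 3.83 to 198. Such intervals and floors cover counting error only.

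CXCL5 RNA was lower at every later sampling than at day 0. Day 0 on plastic held 595, 670.3 and 692 normalized reads, and day 3 held 238, 134 and 216. Plastic at day 21 held 511 and 536, so the 21-day value lay between day 3 and day 0 without overlap with either. The media scaffold held 305, 357, 352 and 319 and the smart scaffold 129, 101 and 106. No neighbouring groups overlapped, but the highest smart scaffold value (129) and the lowest day 3 value (134) were close together. The day 3 libraries were the most uneven, with a coefficient of variation of 28.0% where counting alone gives 7.68%.

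CCL2 RNA was low at day 0 and higher in every treated library. Day 0 held 12.7, 15.5 and 13.0 normalized reads (80 reads in all), and day 3 held 460.1, 307 and 257. The 2 plastic libraries of day 21 differed from each other, at 322 and 151, and their range overlapped with both day 3 and the media scaffold. The media scaffold held 134, 138, 156 and 106 and the smart scaffold 69.3, 61.6 and 71.3. Day 0, the smart scaffold and the media scaffold were separate from each other, in that order from the lowest. The coefficient of variation was 51.0% on plastic at day 21 and 31.0% at day 3, against 10.1% and 5.82% from counting alone, while at day 0 and on the smart scaffold it was below the counting value.

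The first 3 days in differentiation medium were compared with day 0 on plastic. CCL2 was 24.9-fold higher by the ratio of means, with a difference of 4.50 ± 0.25 (SE) on the log2(normalized reads + 1) scale, which understates folds of low genes. That placed it 8th from the top of 10960 genes. CXCL12 was 2.55-fold higher (log2 difference 1.34 ± 0.11), and CXCL5 was 3.33-fold lower (−1.77 ± 0.17). Libraries did not overlap for 3 of the 4 chemokines, and for 44.3% of all genes tested. The directions thus differed among them, with CXCL5 against CXCL12 and CCL2.

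Between day 3 and day 21 on plastic, CXCL12 was again higher, 2.08-fold (log2 difference 1.05 ± 0.13), and CXCL5 was 2.67-fold higher (1.46 ± 0.19). For CXCL12 this difference was 0.72 after rescaling libraries to the same total and 0.60 after quantile normalization. CCL2 stood at 341 ± 106 (n = 3) and 236 ± 120 (n = 2), with a log2 difference of −0.58 ± 0.27. It was −1.13 without the first plastic library of day 21 and −0.042 without the second. Libraries did not overlap for 3 of the 4 chemokines, and for 65.4% of all genes. Over the whole 21 days, CXCL12 was 5.30-fold higher than at day 0 (2.40 ± 0.13) and CCL2 17.2-fold higher (3.92 ± 0.27, or 3.38 without the first and 4.46 without the second plastic library of day 21). CXCL5 was 1.25-fold lower (−0.31 ± 0.19, or −0.58 after rescaling to the same total). All 4 were separate from day 0, as were 79.7% of all genes.

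Plastic at day 21 was also the group with the most blood and immune cell marker RNA. Of 18 such markers 7 had rows in the table, and their summed level was 144 to 196 normalized reads there. The sums were 36.3 to 38.3 at day 0, 33.9 to 90.9 at day 3, 30.4 to 39.8 on the media scaffold and 26.4 to 38.2 on the smart scaffold. On plastic at day 21 none of the 7 was at 0 reads. CD14, a monocyte co-receptor, stood at 60.9 ± 6.16 (n = 2), and CSF1R at a mean of 41.3. LAPTM5, CD34 and FCER1G were also higher in mean there than at day 0. CD68 (16.2 against 16.3 at day 0) and SPI1 (2.41 against 3.14) were not. Stromal markers held 3.07% to 3.09% of normalized reads on plastic at day 21 and 7.09% to 7.84% on the scaffolds. Collagens weighed heavily in this sum. COL1A1 had means of 86796 on plastic at day 21, 228228 on the media and 235487 on the smart scaffold. COL1A2, COL3A1, VIM, DCN, LUM, CD44 and NT5E were also higher in mean on both scaffolds. PDGFRA was higher on the media scaffold (157 against 71.3 on plastic) but close to plastic on the smart scaffold (72.5). MCAM had means of 0 on plastic, 2.51 on the media and 3.36 on the smart scaffold, from few reads. ENG (3407 against 614 and 576), THY1, PDGFRB and ALCAM were lower on both, and ITGB1 on plastic lay between the 2 scaffolds. Skeletal muscle markers, 6 of 14 with a row, summed to 951 to 1036 at day 0, 891 to 1734 at day 3, 11918 to 14408 on plastic at day 21 and 10711 to 12177 on the scaffolds. Nearly all of this was DES, with means of 993, 1351, 13070, 11718 (media) and 10979 (smart). Each other marker had group means of at most 72.7, reached by TNNT3 on plastic at day 21, and TNNT3 was below 1 on the scaffolds. MYF6 (3.69 to 3.10) and TNNT1 (2.24 to 0.690) were not higher on plastic at day 21 than at day 0. The part of these marker lists in the chemokine levels was not tested.

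At day 21, the scaffolds were compared with plastic. CXCL12 was 4.70-fold lower on the media scaffold (log2 difference −2.23 ± 0.12) and 11.3-fold lower on the smart scaffold (−3.49 ± 0.13). CXCL5 was 1.57-fold lower on the media scaffold (−0.65 ± 0.18) and 4.68-fold lower on the smart scaffold (−2.23 ± 0.19). CCL2 overlapped between media scaffold and plastic (−0.74 ± 0.26). That difference was −0.19 without the first plastic library and −1.28 without the second. On the smart scaffold CCL2 was 3.51-fold lower than on plastic (−1.70 ± 0.27). Without the first plastic library it was −1.16, and without the second −2.24. The SEs come from a fit that assumes the same spread in every group. For CCL2 the SD of log2 values was 0.77 on plastic at day 21 and 0.11 on the smart scaffold. CXCL14 went the other way, with a mean 35.5-fold higher on the media scaffold (4.99 ± 0.38, 932 against 7 reads), the 49th highest difference of 10960 genes. The counting interval of the ratio of reads was 14.6 to 75.4, and the log2 difference was 5.52 without the first plastic library and 4.46 without the second. Libraries did not overlap for 3 of the 4 chemokines on the media scaffold (71.2% of all genes) and for 3 of 4 on the smart scaffold (73.1%). Both comparisons share the same 2 plastic libraries, 1 of which is the shallowest of the 15.

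**Figure D2:**
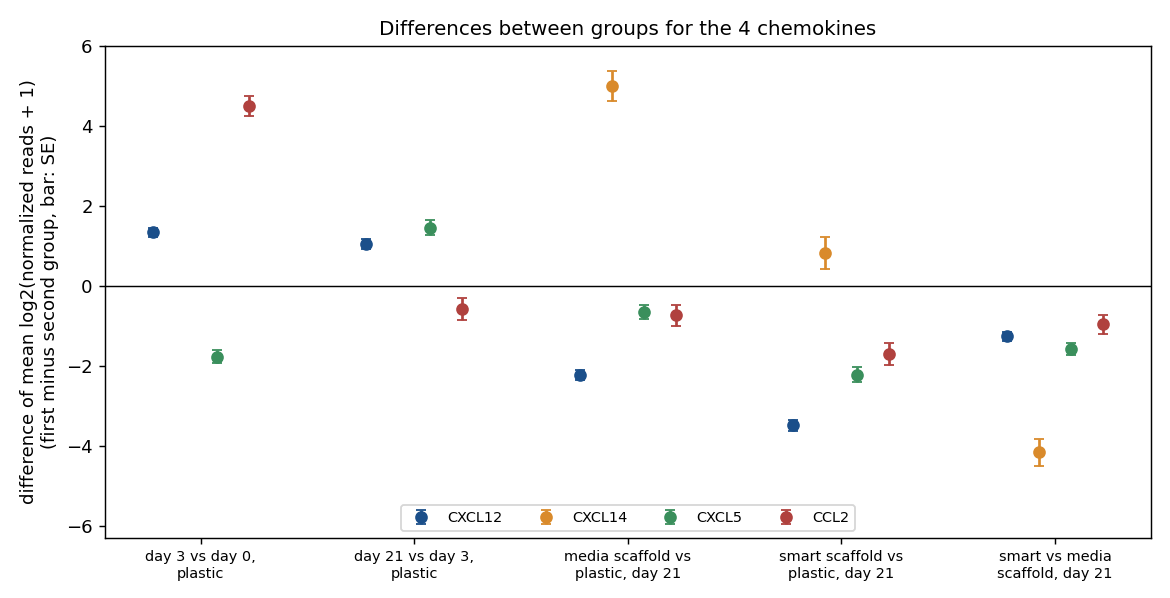
Difference between groups in mean log2(normalized reads + 1), first minus second group, for each chemokine and comparison, with bars of 1 SE from the fit over all genes. CXCL14 is left out of both plastic comparisons, where a group held 3 reads or fewer. CXCL14 is the 1 chemokine above 0 on the media scaffold against plastic (4.99), and all 4 are below 0 on the smart against the media scaffold.

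The 2 scaffolds, which differ in where the growth factors were supplied, were compared directly. All 4 chemokines were lower on the smart scaffold, with no overlap between the 3 smart and 4 media libraries, which was so in this direction for 10.4% of all genes and in either direction for 20.4%. CXCL14 was 19.7-fold lower (−4.16 ± 0.33), the lowest difference of all 10960 genes on this scale. CXCL14 entered these genes only through its media scaffold libraries, so this place and the 49th against plastic are descriptions only. CXCL5 was 2.98-fold lower (−1.57 ± 0.16, 61st from the bottom), CXCL12 2.41-fold lower (−1.26 ± 0.11, 116th) and CCL2 1.98-fold lower (−0.96 ± 0.23, 238th). For each of the 4, every alternative run for this comparison gave a lower level on the smart scaffold. Because the libraries do not overlap, leaving 1 out could not change this direction, so those fits add no support for it. In these groups the summed blood and immune markers overlapped, at 30.4 to 39.8 and 26.4 to 38.2. Of the 7 markers none was at 0 reads over a whole scaffold group. Their part in this difference was not tested.

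**Figure D3:**
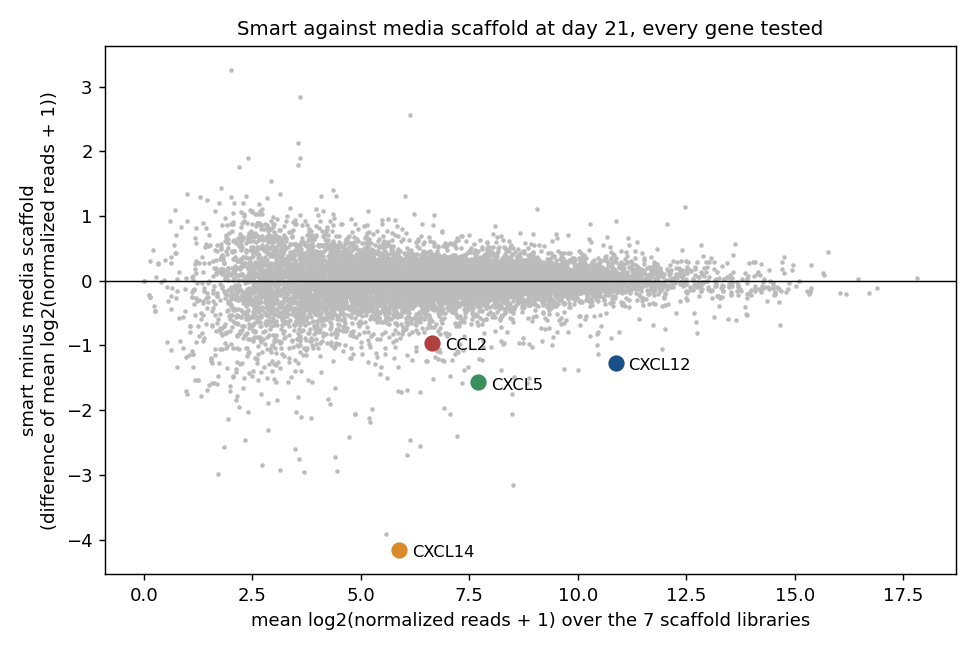
Smart minus media scaffold difference against the mean level over the 7 scaffold libraries, both in log2(normalized reads + 1), for the 10960 genes tested (grey) and the 4 chemokines (coloured). CXCL14 lies lowest of all points, at −4.16, and CCL2 lies nearest to the bulk of genes, at −0.96.

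Across the 15 libraries, the 4 profiles were not alike. CXCL12 and CCL2 had the highest correlation of log2 values among the 6 pairs (Pearson r 0.59, Spearman rho 0.84), and CXCL5 and CCL2 the lowest (r −0.37, rho −0.24). The libraries form 5 groups of shared culture conditions, so these values mostly describe group means and carry no p-value. Among 8634 genes with a symbol and a mean of at least 20 normalized reads, the profiles most like CXCL12 were S100A2 (r 0.98, rho 0.85), KCNK12, TGM2, VAMP5 and HCRTR1. TGM2, which cross-links matrix proteins, had group means of 298 at day 0, 723 at day 3, 1418 on plastic at day 21, 433 on the media scaffold and 219 on the smart scaffold. For CXCL14 they were MARCKS (r 0.95, rho 0.89), F13A1, CHRDL1, OFD1 and PNP. F13A1, a subunit of coagulation factor XIII, stood at 69.3 ± 1.88 (n = 4) on the media scaffold and 14.6 ± 0.589 (n = 3) on the smart scaffold, with means below 1 in each plastic group. F13A1 reached the minimum mean of 20 only through the media scaffold, where CXCL14 is high, so its likeness is a description only. CHRDL1, which binds and inhibits BMPs, stood at 1120 ± 73.4 and 644 ± 69.3 on those scaffolds and at 531 ± 84.8 (n = 2) on plastic at day 21. For CCL2 they were SAT1 (r 0.95, rho 0.96), CCBE1, CMTM3, PIK3IP1 and SMIM4, of which the polyamine acetyltransferase SAT1 went from 294 at day 0 to 3187 at day 3 in the group means. Likeness was weaker for CXCL5, whose closest genes were NDE1 (r 0.88, rho 0.88), HAUS5, ING5, RPL12 and PRR3.

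The gene order of the reference annotation (ARS-UCD2.0, used for names alone) gives CXCL5 and CCL2 chemokine genes as neighbours. CXCL5 stands next to PPBP and PF4, with CXCL8 and CXCL2 close by, and CCL2 next to CCL11 and CCL8. Of these 6 neighbours only CXCL2 had a row in the table, at 4.94 ± 0.842 (n = 3) at day 0, 14.1 ± 5.4 (n = 2) on plastic at day 21 and 3.501 ± 1.01 (n = 3) on the smart scaffold. These families hold closely related copies, and the sources used here do not say how reads that map to several copies were counted, so the split of reads among them is uncertain. CXCL12 and CXCL14 had no chemokine gene among the 4 nearest protein-coding genes on either side.

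Other chemokine ligands were tested across all genes with limma and Benjamini-Hochberg adjustment, and called at an adjusted p below 0.05 with a log2 change of at least 1. Of 37 other ligand symbols 9 had a row in the table and 7 were tested. Of these 7, CXCL2 and CCL26 are so low that they reached the minimum mean of 5 only through plastic at day 21. The counts therefore describe the 7 and support nothing further. At day 3, 2 of 7 rose (CCL26 and CX3CL1), where 6.27% of all genes rose. By limma 0 fell, where 3.73% of all genes did. The count was also 0 by edgeR, by DESeq2 and at an unadjusted p below 0.05, and at most 1 in the other alternatives. CXCL9, too low to be tested, had 15 reads at day 0 and 0 at day 3. From day 0 to day 21 on plastic all 7 rose, where 21.2% of genes did, with 5 rising after rescaling to the same total. The neutrophil attractant GRO1, the bovine symbol of CXCL1, went from 7.65 ± 2.13 (n = 3) to 58.2 ± 9.42 (n = 2), unlike CXCL5 with which it shares the receptor CXCR2. CXCL16, a membrane-bound scavenger and chemokine, went from 303 ± 28.0 to 1276 ± 138 (log2 change 2.07, adjusted p = 6.86e-11). CX3CL1, a membrane-anchored chemokine, went from 0.853 ± 0.19 (5 reads) to 142 ± 54.9 (161 reads; log2 change 6.22, adjusted p = 3.02e-09).

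On the media scaffold 5 of the 7 ligands were lower than on plastic and 1 was higher, where 14.6% and 20.8% of all genes were. GRO1 stood at 6.93 ± 0.87 (n = 4, log2 change −2.90) and CCL26 at 3.7006 ± 1.45 (−2.63). The higher one was CX3CL1, at 348 ± 75.5 against 142 ± 54.9 (log2 change 1.31, adjusted p = 0.0158). On the smart scaffold 5 of 7 were lower than on plastic, where 16% of genes were, led by CCL26 (−4.33) and GRO1 (−3.30). Between the scaffolds 1 of 7 was lower on the smart scaffold. This was CX3CL1, at 119 ± 36.1 (n = 3) against 348 ± 75.5 (n = 4), a log2 change of −1.56 with an adjusted p = 0.0455. The call ended with a pseudocount of 0.5 (adjusted p = 0.0688), rescaling to the same total (0.0524), quantile normalization (0.0529), the replicate number as a block (0.0509) and without any 1 of 6 of the 7 libraries, up to 0.191.

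**Figure D4:**
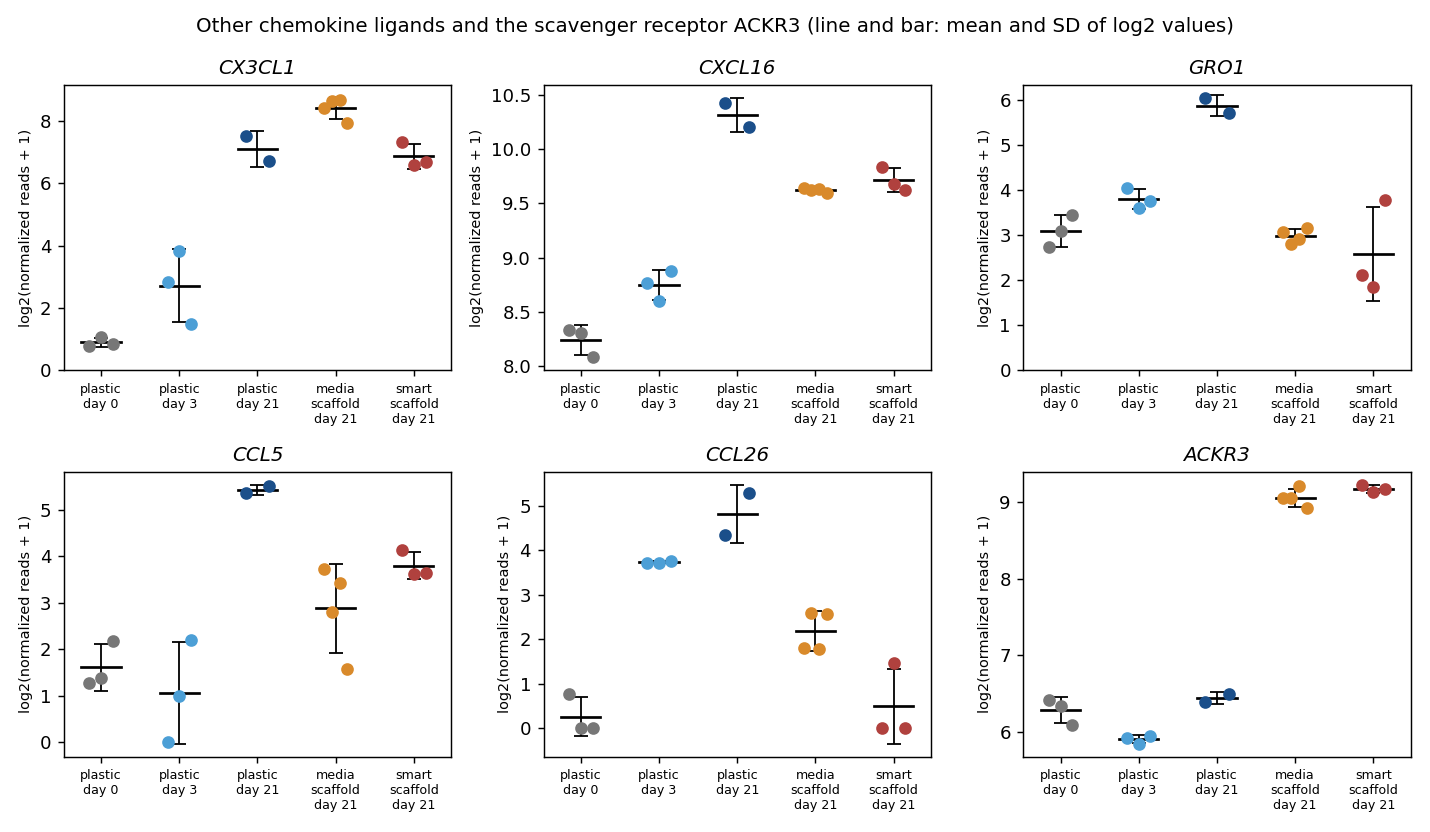
RNA level of 5 other chemokine ligands and of the receptor ACKR3 in each library, as log2(normalized reads + 1), by group, with the mean and SD of the log2 values. GRO1, CCL5, CCL26 and CXCL16 are highest on plastic at day 21, CX3CL1 on the media scaffold, and ACKR3 on both scaffolds. The axes of CXCL16 and ACKR3 do not start at 0.

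Among chemokine receptors, 4 of 24 symbols had a row in the table and 1 was tested. ACKR3, the atypical receptor that removes CXCL12, stood at 77.2 ± 8.98 (n = 3) at day 0, 58.8 ± 2.22 (n = 3) at day 3 and 86.1 ± 4.62 (n = 2) on plastic at day 21. It was higher on the media scaffold at 535 ± 44.0 (n = 4, log2 change 2.62, limma adjusted p = 4.48e-11) and on the smart scaffold at 579 ± 20.7 (n = 3, 2.74, adjusted p = 3.60e-11). The difference between the scaffolds was 0.12 (limma adjusted p = 0.732). Any relation of ACKR3 to the CXCL12 level was not tested. CXCR4, the signalling receptor of CXCL12, had too few reads to be tested. Its reads numbered 33 at day 0, 1 at day 3, 0 in the plastic libraries of day 21 and 20 on each scaffold. With 0 reads taken at the floor of 3, plastic at day 21 was at least 1.92-fold lower than day 0, and the upper counting limit of its ratio to day 0 was 0.679. CXCR2, CCR2 and the CXCL12-cleaving protease DPP4 had no row under these symbols, so they were not analysed.

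Genes that relay, cleave or anchor chemokines went both ways. Of 27 tested genes of receptor signalling and desensitisation, 5 rose at day 3 (6.27% of all genes), 6 rose and 5 fell from day 0 to day 21 on plastic (21.2% and 24.1%), and 5 were higher and 5 lower on the media scaffold than on plastic (20.8% and 14.6%), or 3 and 6 after quantile normalization. RGS10, which shortens G protein signals, went from 131 ± 12.7 to 674 ± 39.9 at day 3 (log2 change 2.36, adjusted p = 5.41e-10) and stood at 58.6 ± 14.8 on plastic at day 21. The arrestin ARRB1, which uncouples receptors, was lower on the media scaffold than on plastic, at 20.004 ± 3.504 (n = 4) against 118 ± 2.29 (n = 2). Of 11 tested proteases able to cleave chemokines, 6 were higher and 0 lower on the media scaffold than on plastic (20.8% and 14.6% of all genes), and 5 higher and 1 lower on the smart scaffold (21.4% and 16%). The 0 lower on the media scaffold was also the count by edgeR and by DESeq2, with 1 lower at an unadjusted p below 0.05 in limma. CTSL, cathepsin L, had 0 reads in the 2 plastic libraries of day 21. With plastic taken at the floor of 3 reads, CTSL was 68.8-fold higher on the media and 58.1-fold higher on the smart scaffold. These folds leave out counting error. The aminopeptidase ANPEP rose from 7.88 ± 0.133 at day 0 to 1277 ± 149 on plastic at day 21 (log2 change 7.17, adjusted p = 1.10e-12). Of 18 tested genes of heparan sulfate proteoglycans, which hold chemokines at the cell surface, 8 rose and 1 fell on plastic by day 21 (21.2% and 24.1% of all genes), or 4 and 2 after rescaling to the same total. The syndecan SDC2 was higher on the smart scaffold than on plastic, at 1816 ± 168 against 227 ± 9.42 (log2 change 2.99, adjusted p = 2.11e-10).

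NF-kB is a transcription factor known to drive CCL2 and CXCL5 under inflammatory signals. Of 24 tested NF-kB targets and inflammatory cytokines, 3 rose and 2 fell at day 3 (6.27% and 3.73% of all genes). The 2 that fell were PTGES (26.7 ± 5.34 to 4.89 ± 1.25) and TNFAIP3 (18.2 ± 1.36 to 6.68 ± 2.81). Any relation of this list to the CCL2 or CXCL5 level was not tested. By day 21 on plastic 12 rose and 3 fell against day 0 (21.2% and 24.1% of all genes), with a median log2 change of 1.01 where that of all genes was −0.056. VCAM1, an adhesion receptor on this list and on that of niche factors, went from 1.97 ± 1.39 (n = 3) at day 3 to 180.2 ± 94.5 (n = 2) at day 21 (log2 change 5.92, adjusted p = 2.68e-09), a step at which 15.5% of all genes rose. Of 17 tested niche factors that marrow stroma expresses with CXCL12, 8 rose and 2 fell over the same 21 days, among them GAS6, a ligand of AXL-type receptors, from 69.1 ± 5.53 to 1142 ± 18.1 (4.03, adjusted p = 3.64e-14). On the smart scaffold against plastic, 5 NF-kB list genes were lower and 4 higher, and 5 niche factors lower and 3 higher, where 16% of all genes were lower and 21.4% higher. The acute phase pattern receptor PTX3 was among the higher ones, at 4463 ± 383 (n = 3) against 46.2 ± 45.9 (n = 2).

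Between the scaffolds, 4 of the 104 tested genes of all lists were lower on the smart scaffold, where 0.83% of all genes were. None was higher by limma (0.073% of all genes), edgeR or DESeq2, with 7 higher at an unadjusted p below 0.05. Besides CX3CL1 these were the serum amyloid gene SAA3 at 26.03 ± 7.55 (n = 3) against 149 ± 45.3 (n = 4; log2 change −2.47, adjusted p = 0.000897), VCAM1 at 14.9 ± 2.41 against 68.1 ± 10.04 (−2.12, adjusted p = 0.00315), and the vascular ligand ANGPT1 at 25.9 ± 4.83 against 75.3 ± 10.7 (−1.51, adjusted p = 0.0267). The ANGPT1 call ended with the replicate number as a block (0.0532) and without any 1 of 6 libraries (0.0587 to 0.113). SAA3 and VCAM1 kept their calls under every alternative run.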

How the data were processed

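For the MARS-seq libraries, the submitters' processing notes name cutadapt, STAR, HTSeq, DESeq and the build ARS-UCD1.2, without tool versions. The authors deposited a normalized read signal for 12894 genes. Its values are whole multiples of 1 step per library (100% within 0.1 of a whole number), so whole reads were recovered. Of 17 value columns 15 matched the labels by name, and 2 entered no step. The sources used here do not say whether molecular identifiers were collapsed or strand was used. The log2(value + 1) data of the 10960 genes with a mean of at least 5 were fitted by limma 3.58.1 under R 4.3.3 (trend, robust, 1 fit of 15 libraries with a mean per group). Tests were two-sided and Benjamini-Hochberg adjusted over all genes tested. The script was tested on simulated data. edgeR 4.0.16 and DESeq2 1.42.0 were run on recovered reads as alternatives, with other pseudocounts (0.5 and 4), no filter, a minimum mean of 20, other scaling, fits of the compared groups alone, a replicate block and each library left out. The members and gene lists were chosen with earlier results of these data known. From 7 lists, up to 2 called genes with the largest change and no overlap were eligible by list and comparison, and the text takes examples from them. The receptors CXCR4, ACKR3, CCR2 and CXCR2 and the protease DPP4 were to be named whatever their values. CXCL16, MCAM, the day 0 to day 21 values of GRO1 on plastic and the CX3CL1 values on the media scaffold against plastic fall outside that rule and were chosen after their values were seen. The planned comparisons with scaffold cells of day 0 and the planned promoter motif search were not run.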

Additional observations from a re-analysis of the deposited data

Results flagged for a closer look

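On the media scaffold, the group with 4 libraries, single libraries far from the rest were looked for in 22 genes, the 4 chemokines and the list genes eligible for naming in its comparisons. The test flags about 1 group in 20 by chance. SDC2 stood at 1898 normalized reads in the fourth library against 1251 to 1325 in the others, and EBF2 at 14.9 in the second library against 8.88 to 9.72. None of the 4 chemokines had such a library.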

How the results depend on the processing

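The 21 log2 differences of the chemokines kept their sign in all 330 alternatives, and 7 values moved by more than the replicate SD. Where the libraries of the compared groups do not overlap, a fit without 1 library could not change the sign. Quantile normalization gave 1.52 for CXCL12 at day 3 against day 0, and 0.60 and 2.12 for CXCL12 on plastic at day 21 against day 3 and day 0. Rescaling to the same total, which shifted the median of all genes by −0.32 and −0.26 in those 2 comparisons, gave 0.72 and 2.13 for CXCL12 and 1.13 and −0.58 for CXCL5. It also gave 1148 higher and 3057 lower genes between day 3 and day 21 (1700 and 2124 as analysed), 1812 and 3276 between day 0 and day 21 (2320 and 2636), and 25 and 18 list genes between day 3 and day 21 (37 and 14). Lower list genes at day 3 numbered 2 as analysed, 4 with no filter and 1 with a minimum mean of 20. That minimum, which tests fewer genes, gave 11 lower list genes on the media scaffold (19 as analysed) and 16 on the smart scaffold (27) against plastic. Between the scaffolds 8 genes were higher and 91 lower, with 14 higher in a fit of these groups alone, and 2 to 9 higher and 51 to 79 lower without 1 library. The cause of these shifts was not tested, other than the fewer genes tested. The 4 lower list genes were 2 with the replicate block and 2 to 4 without 1 library. Same-numbered libraries of different groups shared little deviation, with a median correlation of 0.0022 and 2 of 26 pairs above 0.1 (highest 0.157). Pairs of different number had a median of 0.0010, with 0 of 63 above 0.1. The numbers were not taken as pairs, and the block changed no other call of a named gene than CX3CL1 and ANGPT1. Of 67 changes of named list genes, 18 of 1025 alternative values lost the call, including AGRN between day 3 and day 21 without the second plastic library (adjusted p = 0.0622), and 0 reversed. Depth limits CXCL14 on plastic, with 2, 0 and 7 reads per group.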
